A study of Mus musculus with 48 samples.

Results

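The secreted WNT antagonists Sfrp1, Sfrp2, Frzb, Sfrp4, Sfrp5 and Wif1 were followed in RNA-seq of mouse skin. They are the 6 genes with these names among the 46983 genes listed in each of the deposited tables, and all 6 were found in both. One table holds whole skin of C57BL/6 mice from the chin, ventral and dorsal domains at 6 labelled stages of the hair cycle, as 43 libraries in 18 groups of 2 or 3. The stages are competent telogen (the first rest phase), early anagen, mid-anagen and late anagen (growth), catagen (regression) and refractory telogen (the second rest phase). The other table holds 7 libraries: 3 of the cartilage/muscle complex of the ear, 2 of ear skin in telogen, and 2 of dorsal skin labelled competent telogen. The latter 2 hold the same values in both tables, so that 48 libraries are distinct. No allele, transgene or treatment is given in the labels, and age and sex are not given there. Neither is it stated that libraries of a group came from separate mice, so p-values measure the spread between libraries, which may be technical.

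WNT ligands bind Frizzled and LRP receptors at the cell surface, and in hair follicles the pathway drives the entry into growth. SFRP proteins carry a cysteine-rich domain like that of the Frizzled receptors and bind WNT ligands outside the cell. Wif1, WNT inhibitory factor, belongs to another family and binds WNT ligands through its own WIF domain. Among the SFRPs, Sfrp1, Sfrp2 and Sfrp5 are close relatives, and Frzb and Sfrp4 form a second branch. Frzb and Wif1 are known from cartilage, among other tissues.

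On GRCm38 with GENCODE vM21, the genes lie on 6 chromosomes. Wif1 (ENSMUSG00000020218) covers chr10:121033960-121100650 on the plus strand, with 10 exons in its longest transcript. Sfrp1 (ENSMUSG00000031548) covers chr8:23411502-23449632 on the plus strand with 3 exons, and Sfrp5 (ENSMUSG00000018822) covers chr19:42197971-42202252 on the minus strand with 3 exons. Sfrp2 (ENSMUSG00000027996) covers chr3:83766321-83774316 on the plus strand with 3 exons. Its span overlaps that of the minus-strand gene Gm26771, and whether their exons overlap was not checked. The library kit does not mark strand, so reads from any shared exon bases cannot be told apart by strand. Frzb (ENSMUSG00000027004) covers chr2:80411970-80447625 on the minus strand with 6 exons, and Sfrp4 (ENSMUSG00000021319) covers chr13:19623104-19632994 on the plus strand with 5 exons.

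The sequence upstream of the start is shown for Wif1, Sfrp2 and Sfrp5, the 3 members with a usable window. Sfrp1 and Sfrp4 had no RefSeq window, and only 21 bases of that of Frzb lay before its GENCODE start. Wif1 is the member with the highest levels. The highest and lowest group means of Sfrp2 and Sfrp5 in skin differed by 18.7-fold and 8.43-fold. The sequences are RefSeq promoter windows on GRCm38.p6, cut where the gene starts in GENCODE and written 5′ to 3′ on the strand of the gene. They are chr10:121033754-121033959 for Wif1, chr3:83766071-83766320 for Sfrp2 and chr19:42202253-42202502 for Sfrp5. Capitals mark matches on either strand to the TATA box TATAAA or the GC box GGGCGG, and the TCF/LEF cores CTTTGA and CTTTGT were searched in the same way.
Wif1: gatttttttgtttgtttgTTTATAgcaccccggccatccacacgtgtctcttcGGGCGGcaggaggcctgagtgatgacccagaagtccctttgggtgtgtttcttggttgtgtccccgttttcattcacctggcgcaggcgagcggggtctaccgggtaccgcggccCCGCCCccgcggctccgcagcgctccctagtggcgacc
Sfrp2: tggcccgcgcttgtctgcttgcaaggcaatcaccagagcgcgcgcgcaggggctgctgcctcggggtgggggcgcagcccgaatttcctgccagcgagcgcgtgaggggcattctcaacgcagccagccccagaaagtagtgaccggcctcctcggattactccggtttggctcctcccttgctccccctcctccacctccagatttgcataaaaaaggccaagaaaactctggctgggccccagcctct
Sfrp5: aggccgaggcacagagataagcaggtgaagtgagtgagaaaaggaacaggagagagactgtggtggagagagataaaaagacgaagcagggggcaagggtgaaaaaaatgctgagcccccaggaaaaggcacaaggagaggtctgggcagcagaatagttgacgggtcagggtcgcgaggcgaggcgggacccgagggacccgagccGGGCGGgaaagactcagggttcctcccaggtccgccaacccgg
The Wif1 window of 206 bases holds 1 TATA box, as do 9.75% of 27025 promoters cut to that length, and 2 GC boxes, of which at least 1 is in 25.7% of promoters. The Sfrp5 window of 250 bases holds 1 GC box, found in 32.9% of promoters of that length, and the Sfrp2 window holds none of the 4 motifs. None of the windows holds a TCF/LEF core. CTTTGA is in 14.05% and CTTTGT in 16.5% of windows of 250 bases. These matches describe the letters only.

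Several libraries went against their stage labels or stood close to libraries of another label. The summed level of 6 hair matrix and shaft genes (Krt31, Krt32, Krt35, Msx2, Hoxc13 and Dlx3), which mark growing follicles, was lowest in the libraries labelled ventral early anagen, at 518 to 565 FPKM (fragments per kilobase of transcript, scaled to the depth of the library), and in chin refractory telogen, at 529.65 to 911 FPKM. It was 1356 to 1637 FPKM in ventral, 1627 to 1724 FPKM in chin and 2690.0 to 2717 FPKM in dorsal competent telogen. Mki67, a gene of dividing cells that was chosen after its values were seen, was at 1.39 to 1.42 FPKM in ventral early anagen and at 6.12 to 13.54 FPKM in competent telogen. Libraries labelled dorsal competent telogen were paired with those labelled chin late anagen. The spread of their differences, squared and taken from the interquartile range over genes, was 2.016 to 2.652 times that of counting noise in 4 pairs. This is within the range of replicate pairs (1.34 to 20.289 times, median 2.71 in 36 pairs). The dorsal competent telogen replicates were themselves at 1.34, below all 4 pairs, and the chin late anagen replicates at 3.124. The mean square, which also counts the genes that differ most, was 6.0 to 11.62 times counting noise in the 4 pairs. It was 2.6 times between the dorsal competent telogen replicates. No other labels were paired, so how unusual such ratios are was not tested. The highest replicate ratio, 20.289, was that of the 2 ventral refractory telogen libraries, and the next, 10.473, that of chin mid-anagen. One ventral catagen library carries an ear location tag although its title and source name say ventral catagen. The interaction is also given without the stages and groups in doubt, and comparisons of those groups rest on them.

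Fragments per library were estimated from the steps of the FPKM values at 6736984 to 26117675 in skin (median 12814948). Over both tables, the estimated fragments per library lay between 452.2 and 2694 for Sfrp1 but between 4.0 and 665 for Sfrp5, so the members with low FPKM were measured with more counting error. A single fragment was worth 0.0203 to 0.0865 FPKM for Sfrp5 and 0.009 to 0.0384 FPKM for Sfrp4.

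On the FPKM scale, which is per length, Sfrp1 and Wif1 were the most abundant members in skin. Sfrp1 ranged from 14.83 to 50.17 FPKM over the 43 libraries (median 24.57), and Wif1 from 2.62 to 69.75 FPKM (median 23.3). Sfrp2 followed with 1.04 to 25.71 FPKM (median 7.57) and Sfrp4 with 0.14 to 16.99 FPKM (median 5.38). Sfrp5 (0.23 to 3.9 FPKM) and Frzb (0.24 to 2.27 FPKM) were low, and 31 libraries had Frzb below 1 FPKM. The fold between the highest and the lowest group mean was 68.9 for Sfrp4, 25.1 for Wif1, 18.7 for Sfrp2, 8.43 for Sfrp5, 4.46 for Frzb and 2.89 for Sfrp1. Folds against low groups rested on few fragments: that of Sfrp4 was 50 to 111 with either dorsal refractory telogen library left out (14.3 and 24.3 fragments), that of Sfrp5 5.8 to 15.4 with either dorsal catagen library left out (4.0 and 10.8 fragments), and that of Frzb 7.43 without ventral refractory telogen replicate 1. Sfrp1 and Wif1, with similar median levels, thus differed in how far their levels moved. In these whole tissues, fewer cells of a type and less RNA per cell cannot be told apart.

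**Figure D1:**
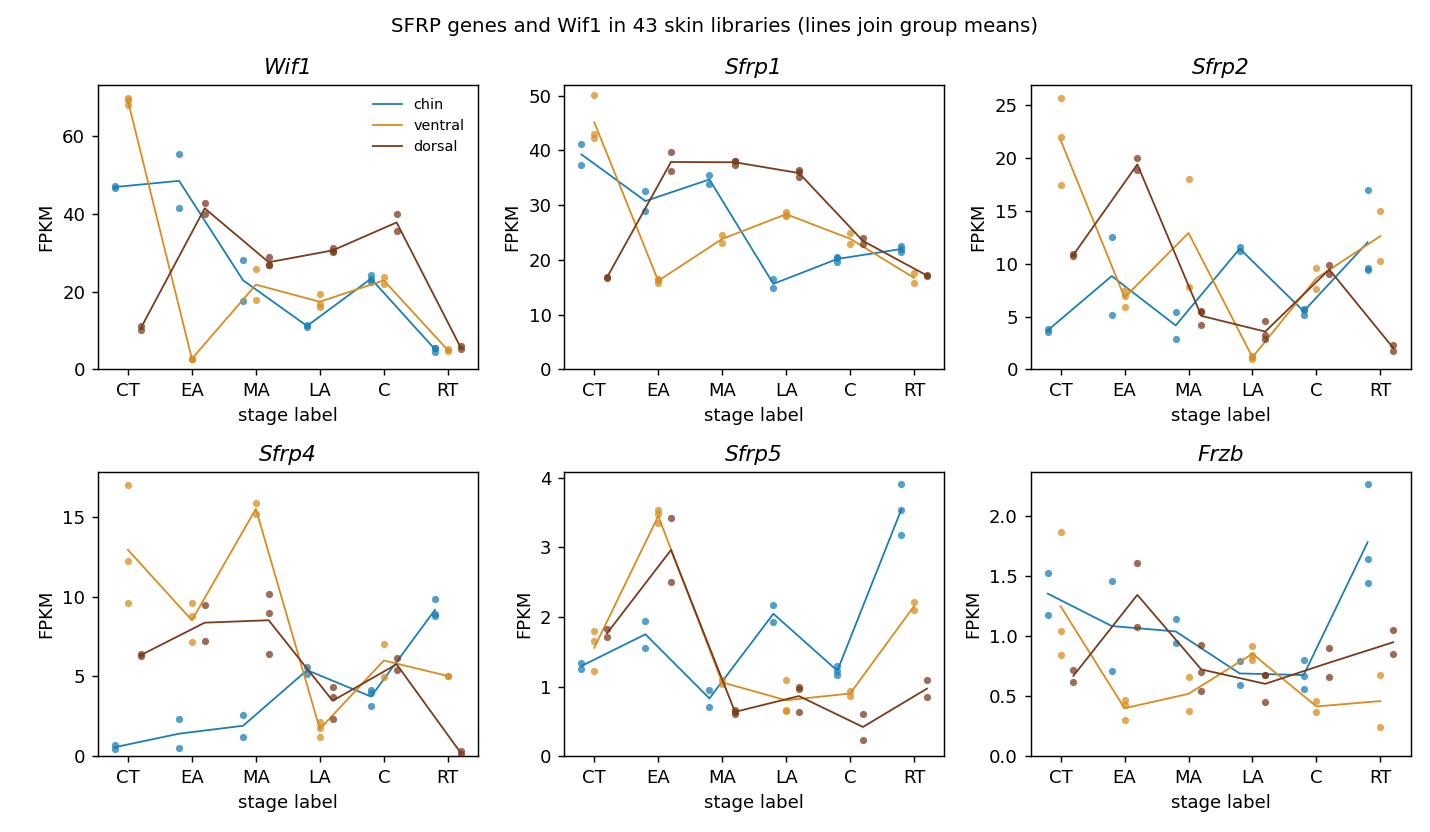
FPKM of each gene (vertical axis, linear, its own scale in each panel) by stage label (CT competent telogen, EA early anagen, MA mid-anagen, LA late anagen, C catagen, RT refractory telogen), where points are the 43 libraries, colours the domains and lines join the group means. Wif1 is between 4.61 and 6.13 FPKM in all 7 refractory telogen libraries and highest in ventral competent telogen, while Sfrp4 at refractory telogen runs from 0.14 FPKM in dorsal to 9.83 FPKM in chin skin.

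The first question was whether the domains differ in how these genes change over the hair cycle. Differences were tested with limma on log2(FPKM + 1), and p-values were adjusted over the 21257 genes that reached 0.5 FPKM in 2 or more libraries. All 6 members passed the interaction of domain and stage, as did 73.3% of all genes, so the members' share is to be read against a high background. The adjusted p was 2.24e-18 for Wif1, 2.25e-17 for Sfrp1, 1.54e-12 for Sfrp4, 2.32e-10 for Sfrp2, 3.4e-08 for Sfrp5 and 0.00102 for Frzb. All 6 also passed without all competent telogen and ventral early anagen libraries, with the highest adjusted p at 0.00715 for Frzb and that of Wif1 at 0.000165. Without the chin late anagen libraries alone, the highest adjusted p was 0.00166, again for Frzb. Among stages, 6 of 6 members differed in chin skin (66.2% of all genes) and 6 of 6 in ventral skin (70.2%). In dorsal skin 5 of 6 did (68.5%), with an adjusted p of 0.0789 for Frzb. Without the ventral competent telogen and early anagen libraries, Frzb did not pass among the ventral stages (adjusted p = 0.132).

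Wif1 varied with stage in each domain. In chin skin it was at 47.16 and 46.61 FPKM in competent telogen, 41.52 and 55.41 FPKM in early anagen, 28.23 and 17.59 FPKM in mid-anagen and 11.53 and 10.84 FPKM in late anagen. It was then at 23.3, 24.21 and 22.47 FPKM in catagen and at 4.61, 5.46 and 5.47 FPKM in refractory telogen. Chin Wif1 thus stood highest in the first 2 stages and lowest in the last, and the catagen libraries did not overlap those of late anagen or refractory telogen.

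In ventral skin Wif1 was at 69.75, 69.2 and 68.07 FPKM in competent telogen, the highest values of all skin libraries, and at 2.62, 2.81 and 2.82 FPKM in the libraries labelled early anagen, the lowest. From mid-anagen to catagen the ventral libraries lay between 16.05 and 25.73 FPKM, and in refractory telogen at 5.32 and 4.64 FPKM. The step from competent telogen to early anagen was −4.22 ± 0.12 (log2 difference ± SE, adjusted p = 3.91e-21), and the step to mid-anagen was 2.58 ± 0.14 (adjusted p = 1.27e-14). Mki67 and the hair matrix list changed in the same direction as Wif1 at these steps. In the 3 stages Mki67 was at 11.09 to 12.47, 1.39 to 1.42 and 6.11 to 6.71 FPKM. The list was at 1356 to 1637, 518 to 565 and 3152 to 3187 FPKM, so it was highest in mid-anagen and Wif1 in competent telogen. Over the 18 group means r of Wif1 with the list was 0.400. The part of Mki67 and of the list in the result was not tested.

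In dorsal skin Wif1 was at 11.1 and 10.05 FPKM in the libraries labelled competent telogen and at 42.77 and 40.05 FPKM in early anagen. The 8 libraries from mid-anagen to catagen were between 26.74 and 39.9 FPKM, and refractory telogen was at 5.28 and 6.13 FPKM. From catagen to refractory telogen Wif1 changed by −2.53 ± 0.15 in dorsal skin (adjusted p = 8.9e-14), −1.98 ± 0.12 in chin skin (1.99e-13) and −2.00 ± 0.15 in ventral skin (4e-11), and in none of the 3 domains did the libraries of these stages overlap. Wif1 differed among domains at every stage but refractory telogen (adjusted p = 0.648) and mid-anagen (0.0729). It passed at refractory telogen after quantile normalization (0.0407), and at mid-anagen after rescaling to TPM (0.00656) or without chin replicate 1 (0.0017), chin replicate 2 (0.0322) or ventral replicate 2 (0.0112).

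Across the 18 groups the order of Wif1 began with ventral competent telogen, chin early anagen and chin competent telogen, where the chin groups overlapped each other. It ended with the refractory telogen groups, of which neighbours overlapped, and ventral early anagen. The groups from chin catagen down to ventral late anagen (23.3 to 17.4 FPKM) overlapped with their neighbours. The genes with the most similar order were found by correlation. Pearson's r of the 18 group means of log2(FPKM + 1) was 0.973 with Cenpf, a kinetochore protein, 0.973 with Kif11, a mitotic kinesin, and 0.972 with Incenp, a subunit of the chromosomal passenger complex. These were the 3 highest among the genes that reached 5 FPKM in a group, with predicted genes (Gm or Rik names) left out. Before that exclusion 12216 genes reached this level. Across the 43 libraries r was 0.96, 0.968 and 0.964, and with Mki67 over groups it was 0.923. Group means share the libraries and the stage labels, so these values describe the pattern only.

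**Figure D2:**
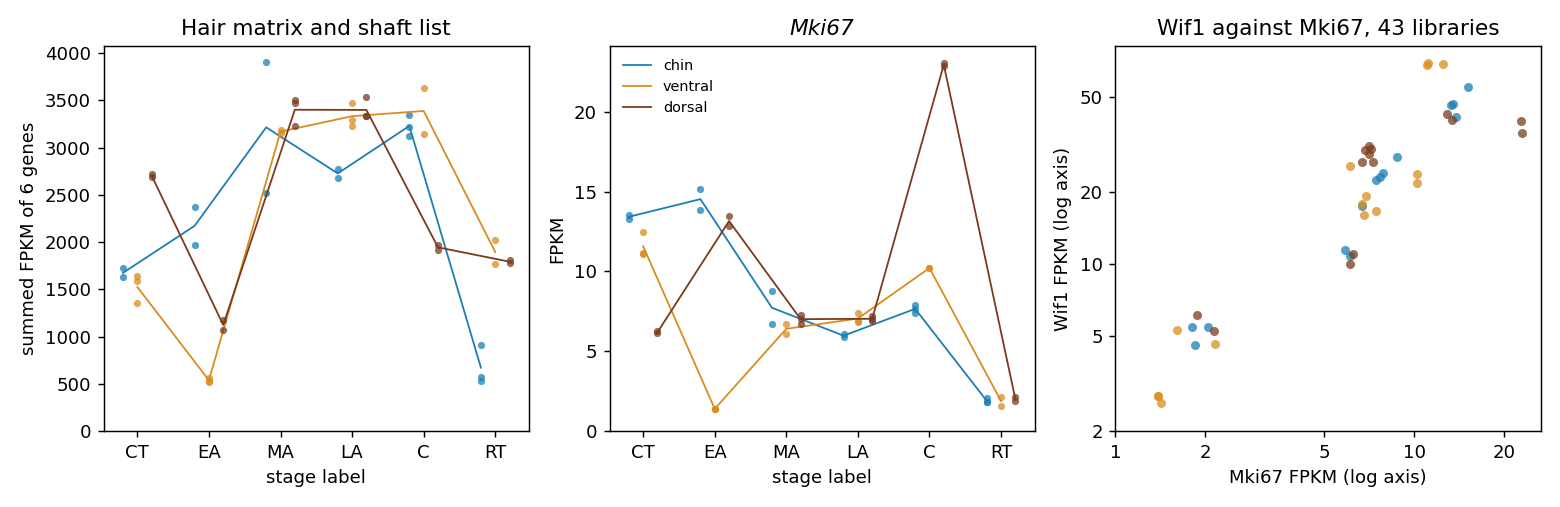
Left and middle, summed FPKM of 6 hair matrix and shaft genes and FPKM of Mki67 by stage label (abbreviations as CT competent telogen, EA early anagen, MA mid-anagen, LA late anagen, C catagen, RT refractory telogen), with points for the 43 libraries and lines through group means; right, Wif1 against Mki67 FPKM on log axes. Ventral early anagen is lowest for both markers and for Wif1 (2.62 to 2.82 FPKM), next to the refractory telogen libraries.

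Sfrp1, the most evenly expressed SFRP, was high through dorsal anagen. Dorsal skin had 39.62 and 36.14 FPKM in early anagen, 37.36, 38.07 and 38.02 FPKM in mid-anagen and 36.5, 36.01 and 35.06 FPKM in late anagen, followed by 23.98 and 22.96 FPKM in catagen and 17.18 and 17.12 FPKM in refractory telogen. It changed by −0.59 ± 0.07 from late anagen to catagen (adjusted p = 5.78e-08) and by −0.43 ± 0.08 from there to refractory telogen (2.67e-05), with no overlap between these groups. In chin skin Sfrp1 was at 37.28 and 41.22 FPKM in competent telogen and at 35.56 and 33.81 FPKM in mid-anagen but at 16.43 and 14.83 FPKM in the libraries labelled late anagen, a step of −1.10 ± 0.08 (3.47e-11). In ventral skin it was at 43.01, 50.17 and 42.23 FPKM in competent telogen and at 16.49, 16.38 and 15.71 FPKM in early anagen, a step of −1.42 ± 0.06 (8.01e-17). The lowest 4 groups, from dorsal competent telogen (16.8 FPKM) to chin late anagen (15.6 FPKM), overlapped with their neighbours. Of the other members, Wif1 had the pattern closest to that of Sfrp1 (r = 0.815 over the 18 groups). The most alike genes were Enoph1, an enzyme of methionine salvage (r = 0.909), Gga2, a Golgi sorting adaptor (0.904), and Klk13, a kallikrein protease (0.897).

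Sfrp2, an SFRP of fibroblasts in many tissues, was highest in ventral competent telogen at 17.5, 25.71 and 21.99 FPKM and in dorsal early anagen at 18.85 and 19.99 FPKM, which overlapped. It was lowest in ventral late anagen, at 1.24, 1.04 and 1.2 FPKM, next to dorsal refractory telogen at 2.29 and 1.79 FPKM. In ventral skin it fell by 2.58 ± 0.28 from mid-anagen (7.78 and 18.07 FPKM) to late anagen (adjusted p = 1.18e-07) and was higher by 2.15 ± 0.28 in catagen (9.65 and 7.63 FPKM, 8.74e-06). Replicates of Sfrp2 spread more than those of Wif1 or Sfrp1, as in chin early anagen with 5.12 and 12.58 FPKM. In dorsal skin the step from early anagen to mid-anagen (4.24, 5.58 and 5.41 FPKM) was −1.76 ± 0.28 (1.32e-05). The patterns most like that of Sfrp2 were those of Ogn, a matrix proteoglycan (r = 0.916), Retn, an adipocyte hormone (0.882), and Dpep1, a dipeptidase (0.878). The sum of 7 dermal fibroblast genes was 6291 to 6418 FPKM in ventral competent telogen and 5244 to 5273 FPKM in dorsal early anagen, the groups with the most Sfrp2, against 1291 to 1330 FPKM in ventral late anagen and 1150 to 1189 FPKM in dorsal refractory telogen. Over the 18 group means Sfrp2 followed the lists of macrophages (r = 0.760), fibroblasts (0.684) and smooth muscle (0.635). In the same 4 groups the macrophage genes summed to 43.8 to 50.3, 31.7 to 37.0, 11.4 to 15.8 and 17.2 to 18.6 FPKM, and the smooth muscle genes to 202.2 to 228, 204 to 233, 79.2 to 86.7 and 50.3 to 50.8 FPKM. Their part in the result was not tested.

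Sfrp5, an SFRP that was low throughout, was highest in chin refractory telogen at 3.54, 3.18 and 3.9 FPKM, in ventral early anagen at 3.47, 3.53 and 3.34 FPKM and in dorsal early anagen at 2.5 and 3.42 FPKM. These groups overlapped with each other but not with the next group in the order, ventral refractory telogen. It was lowest in dorsal catagen at 0.23 and 0.61 FPKM. From early to mid-anagen Sfrp5 changed by −1.27 ± 0.13 in dorsal skin (0.61, 0.67 and 0.63 FPKM in mid-anagen, adjusted p = 3.33e-09) and by −1.11 ± 0.13 in ventral skin (1.09 and 1.03 FPKM, 2.98e-08). From catagen to refractory telogen it rose by 1.02 ± 0.11 in chin skin (9.51e-09) and by 0.73 ± 0.14 in ventral skin (0.000116), where it reached 2.1 and 2.21 FPKM. Its group means ran against the hair matrix and shaft list (r = −0.770) and against Wif1 (r = −0.463). With every other marker list r was positive, highest for endothelium (0.739), cartilage (0.693), hair follicle stem cells (0.655) and macrophages (0.601). The genes most like it were Tns2, a tensin of focal adhesions (r = 0.928), Mbp, myelin basic protein (0.925), and Chp2, a calcineurin B-like protein (0.923).

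Sfrp4 had the largest fold of FPKM between its highest and lowest group means, although Wif1 spanned more on the log2(FPKM + 1) scale. It was at 15.15 and 15.86 FPKM in ventral mid-anagen and at 12.24, 16.99 and 9.58 FPKM in ventral competent telogen, against 0.46 and 0.68 FPKM in chin competent telogen and 0.14 and 0.31 FPKM in dorsal refractory telogen. Chin skin showed a course of its own, with 0.52 and 2.31 FPKM in early anagen, 2.6 and 1.22 FPKM in mid-anagen, 5.62 and 5.17 FPKM in late anagen, 4.12, 3.15 and 3.95 FPKM in catagen and 8.76, 9.83 and 8.93 FPKM in refractory telogen. Here the last group was above all other chin libraries and the first among the lowest. In ventral skin Sfrp4 fell by 2.62 ± 0.26 from mid- to late anagen (1.19, 1.79 and 2.13 FPKM, adjusted p = 1.72e-08) and rose by 1.37 ± 0.26 to catagen (7.02 and 4.98 FPKM, 0.000854). In dorsal skin it fell by 2.47 ± 0.28 from catagen (5.38 and 6.15 FPKM) to refractory telogen (2.75e-08). Its pattern was closest among the members to that of Sfrp2 (r = 0.744). Among the genes compared it was closest to those of Bre, a subunit of a deubiquitinase complex (0.808), Pamr1 (0.788) and Slc43a3, a membrane transporter (0.775).

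Frzb, also known as Sfrp3, was near the lower end of what these libraries measured. It was at 2.27, 1.44 and 1.64 FPKM in chin refractory telogen and at 0.47, 0.3 and 0.43 FPKM in ventral early anagen, and each group in its order overlapped with the next. Its rise from catagen (0.56, 0.8 and 0.67 FPKM) to refractory telogen in chin skin was 0.72 ± 0.15 (adjusted p = 0.000222). Its step from competent telogen (1.04, 1.87 and 0.84 FPKM) to early anagen in ventral skin was −0.66 ± 0.15 (0.000766). The 3 most similar genes were Sp3os, a transcript antisense to Sp3 (r = 0.840), the WNT ligand Wnt16 (0.805) and Lgr6, an R-spondin receptor (0.793), with lower r across the 43 libraries (0.653, 0.687 and 0.72).

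Counted over the steps between consecutive stages, the members' calls were spread over all 3 domains. In chin skin 1 of 6 members differed between competent telogen and early anagen (2.14% of all genes), 2 between early and mid-anagen (18.1%), 5 between mid- and late anagen (19.7%), 4 between late anagen and catagen (13.1%) and 5 between catagen and refractory telogen (48.0%). With any 1 library left out, 0, 1, 3, 1 and 5 of these calls held, and Wif1 was among them at every step but the first. In ventral skin the counts were 5 (42.5%), 5 (42.4%), 3 (24.2%), 3 (5.93%) and 3 (33.6%), of which 5, 3, 2, 2 and 3 held. The calls that held at both ventral steps into and out of late anagen were those of Sfrp2 and Sfrp4. In dorsal skin they were 5 (43.4%), 4 (39.2%), 1 (2.68%), 3 (38.7%) and 5 (43.7%), of which 2, 3, 0, 2 and 4 held. Sfrp1 and Wif1 held at the first dorsal step and Sfrp1 and Sfrp2 at the step from late anagen to catagen. Wif1 fell in each domain at the last of these steps, and at that step Sfrp5 rose in chin and ventral skin under every alternative that tested it, and in dorsal skin (0.48 ± 0.14, adjusted p = 0.00468) with all libraries in the fit. That dorsal call was lost without replicate 2 of dorsal catagen (0.163) or of dorsal refractory telogen (0.069).

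The second question was how the domains differ at a given stage. At competent telogen 4 of 6 members differed among domains (54.0% of all genes). Ventral skin was above chin skin in 4 members (23.0%), with differences of 3.12 ± 0.26 for Sfrp4 (adjusted p = 1.04e-09), 2.26 ± 0.28 for Sfrp2 (1.05e-06) and 0.55 ± 0.14 for Wif1 (0.004). The fourth, Sfrp1 (0.19 ± 0.07, 0.0409), was lost without chin replicate 1 (0.39) or ventral replicate 2 (0.245). The libraries labelled dorsal were above chin in 2 and below it in 3 members (36.7%), with Wif1 at −2.05 ± 0.15 (1.06e-11) and Sfrp1 at −1.17 ± 0.08 (6.86e-13). Frzb (−0.49 ± 0.19, 0.0383) was lost without chin replicate 1 (0.24) or either dorsal library (0.157 and 0.0898). They were below ventral skin in 4 members (47.9%), a comparison in which the median of all genes was −0.25. After median-of-ratios scaling or quantile normalization the calls of Sfrp2 (adjusted p = 0.155 and 0.138) and Sfrp4 (0.123 and 0.124) were lost, and Sfrp5 was higher in dorsal skin (0.39, 0.0121, and 0.40, 0.0167), while Sfrp1 and Wif1 passed under every alternative. Those dorsal libraries are the ones whose noise ratios to chin late anagen lay within the range of replicate pairs. None of their comparisons can be made without them.

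At early anagen 6 of 6 members differed among domains (51.6%). The libraries labelled ventral were below chin skin in 3 members and above it in 2 (32.9%), with Wif1 at −3.71 ± 0.14 (adjusted p = 3.53e-18), Sfrp1 at −0.88 ± 0.07 (3.65e-11) and Sfrp4 at 2.08 ± 0.26 (2.01e-07). Dorsal skin was above chin skin in 4 members (27.0%), of which Sfrp4 (2.05 ± 0.28, 2.85e-06) held with any 1 library left out. It was above ventral skin in 4 members (41.7%), among them Wif1 by 3.50 ± 0.14 (4.21e-18). Wif1 was at 41.52 and 55.41 FPKM in chin and 42.77 and 40.05 FPKM in dorsal skin, which overlapped.

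At mid-anagen 3 of 6 members differed among domains (38.1%). Sfrp4 was higher in ventral (15.15 and 15.86 FPKM) and dorsal skin (10.17, 8.98 and 6.42 FPKM) than in chin skin (2.6 and 1.22 FPKM), by 2.54 ± 0.28 (adjusted p = 1.91e-07) and 1.73 ± 0.26 (2.1e-05). Sfrp1 was lower in ventral skin (23.1 and 24.57 FPKM) than in chin skin (35.56 and 33.81 FPKM), at −0.52 ± 0.08 (1.24e-05), and dorsal skin was above ventral skin by 0.65 ± 0.07 (4.69e-08). The counts were 3 members between ventral and chin skin (22.1%), 1 between dorsal and chin skin (17.2%) and 4 between dorsal and ventral skin (28.3%), of which 2, 1 and 1 held with any 1 library left out. Sfrp2 differed among domains with all libraries (adjusted p = 0.00177) but not without ventral replicate 2 (0.17), whose 18.07 FPKM stood against 7.78 FPKM in replicate 1.

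At late anagen 5 of 6 members differed among domains, against 20.8% of all genes. Ventral skin differed from the chin libraries in 5 members (15.6%) and dorsal skin in 4 (19.5%). In both, Sfrp1 and Wif1 were higher and Sfrp2 and Sfrp5 lower than in chin skin, with Wif1 at 1.38 ± 0.14 (adjusted p = 1.53e-08) and Sfrp1 at 1.15 ± 0.07 (9.77e-13) for dorsal skin, and Sfrp2 at −2.53 ± 0.28 (2.38e-07) for ventral skin. Wif1 in ventral against chin skin (0.59 ± 0.14, 0.00315) was lost without chin replicate 2 (0.056). The chin libraries of this stage are those whose noise ratios to dorsal competent telogen lay within the range of replicate pairs. Between the dorsal and ventral libraries, a comparison that does not use them, 3 members differed (3.14%), all higher in dorsal skin, with Wif1 at 31.27, 30.16 and 30.35 FPKM against 16.05, 16.77 and 19.39 FPKM (0.78 ± 0.12, adjusted p = 0.000166) and Sfrp1 at 0.33 ± 0.06 (0.00169). The groups did not overlap for either gene. The third call, Sfrp2 (1.07 ± 0.25, 0.0142), was lost without ventral replicate 2 (0.0616) or dorsal replicate 3 (0.106).

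At catagen 3 of 6 members differed among domains (42.9%). Wif1 was higher in dorsal skin (39.9 and 35.65 FPKM) than in chin skin (23.3, 24.21 and 22.47 FPKM) by 0.67 ± 0.14 (adjusted p = 0.000194) and than in ventral skin (23.79 and 22 FPKM) by 0.70 ± 0.15 (0.000458). Both calls held with any 1 library left out, including the ventral library with the ear tag. Sfrp5 was lower in dorsal skin (0.23 and 0.61 FPKM) than in chin skin (1.23, 1.29 and 1.16 FPKM), at −0.66 ± 0.13 (7.57e-05). Between ventral and chin skin 1 member passed (5.19%), and it did not hold with each library left out. Between dorsal and chin skin 3 did (41.3%), and between dorsal and ventral skin 2 (35.4%). Sfrp1 in dorsal against chin skin was lost without chin replicate 3 (0.0512) or dorsal replicate 2 (0.131), and after rescaling to TPM it did not differ among the domains (0.43). Sfrp5 in dorsal against ventral skin was lost without ventral replicate 2 (0.0751) or dorsal replicate 2 (0.296). Mki67 was also highest in dorsal catagen, at 22.84 and 23.03 FPKM against 7.43 to 10.22 FPKM in the other catagen libraries, and its part in the result was not tested.

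At refractory telogen 5 of 6 members differed among domains (42.2%), and dorsal skin was below chin skin in each of those 5 (34.8%). Sfrp4 was at 8.76, 9.83 and 8.93 FPKM in chin, 5.04 and 5.02 FPKM in ventral and 0.14 and 0.31 FPKM in dorsal skin. The dorsal libraries were below all others, at −3.06 ± 0.26 against chin (adjusted p = 2.44e-10) and −2.30 ± 0.28 against ventral skin (6.9e-07). Sfrp2 was at 9.45, 17.04 and 9.63 FPKM in chin, 10.3 and 14.96 FPKM in ventral and 2.29 and 1.79 FPKM in dorsal skin. Chin and ventral libraries overlapped, and dorsal skin was lower, at −2.06 ± 0.28 against chin (1.29e-06) and −2.15 ± 0.31 against ventral skin (1.03e-05). Sfrp5 was at 3.18 to 3.9 FPKM in chin, 2.1 and 2.21 FPKM in ventral and 1.09 and 0.85 FPKM in dorsal skin, and the difference of dorsal from chin skin was −1.20 ± 0.13 (1.09e-08). Its difference from ventral skin (−0.68 ± 0.14, 0.000788) did not pass when only the refractory telogen libraries were fitted (0.0847). Frzb in dorsal against chin skin (−0.50 ± 0.17, 0.0208) was lost without chin replicate 1 (0.117) or either dorsal library (0.0503 and 0.163).

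Ventral skin was below chin skin at refractory telogen in 4 members (30.7%), with Frzb at −0.94 ± 0.17 (adjusted p = 0.000101). Sfrp4 (−0.75 ± 0.26, 0.0255) was lost without chin replicate 2 (0.0604) or either ventral library (0.077 and 0.104). Dorsal skin was below ventral skin in 3 members (13.7%). The median of all genes was −0.17 for ventral and −0.14 for dorsal against chin skin, and scaling by the median of ratios brought both to within 0.02 of 0. Sfrp1 was at 21.42 to 22.48 FPKM in chin against 15.75 to 17.7 FPKM in the other domains, but its differences of −0.38 and −0.34 lost their calls under that scaling (adjusted p = 0.124 and 0.278) and under quantile normalization. That of Sfrp5 in ventral against chin skin (−0.52 ± 0.13, adjusted p = 0.00192) was lost under quantile normalization (0.315) and when only this stage was fitted (0.0635). The 7 dermal fibroblast genes summed to 2053 to 3387 FPKM in chin, 2309 to 2898 FPKM in ventral and 1150 to 1189 FPKM in dorsal skin, and 12 skeletal muscle genes to 14165 to 22778, 1314 to 1352 and 4521 to 4647 FPKM. Their part in the results was not tested.

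**Figure D3:**
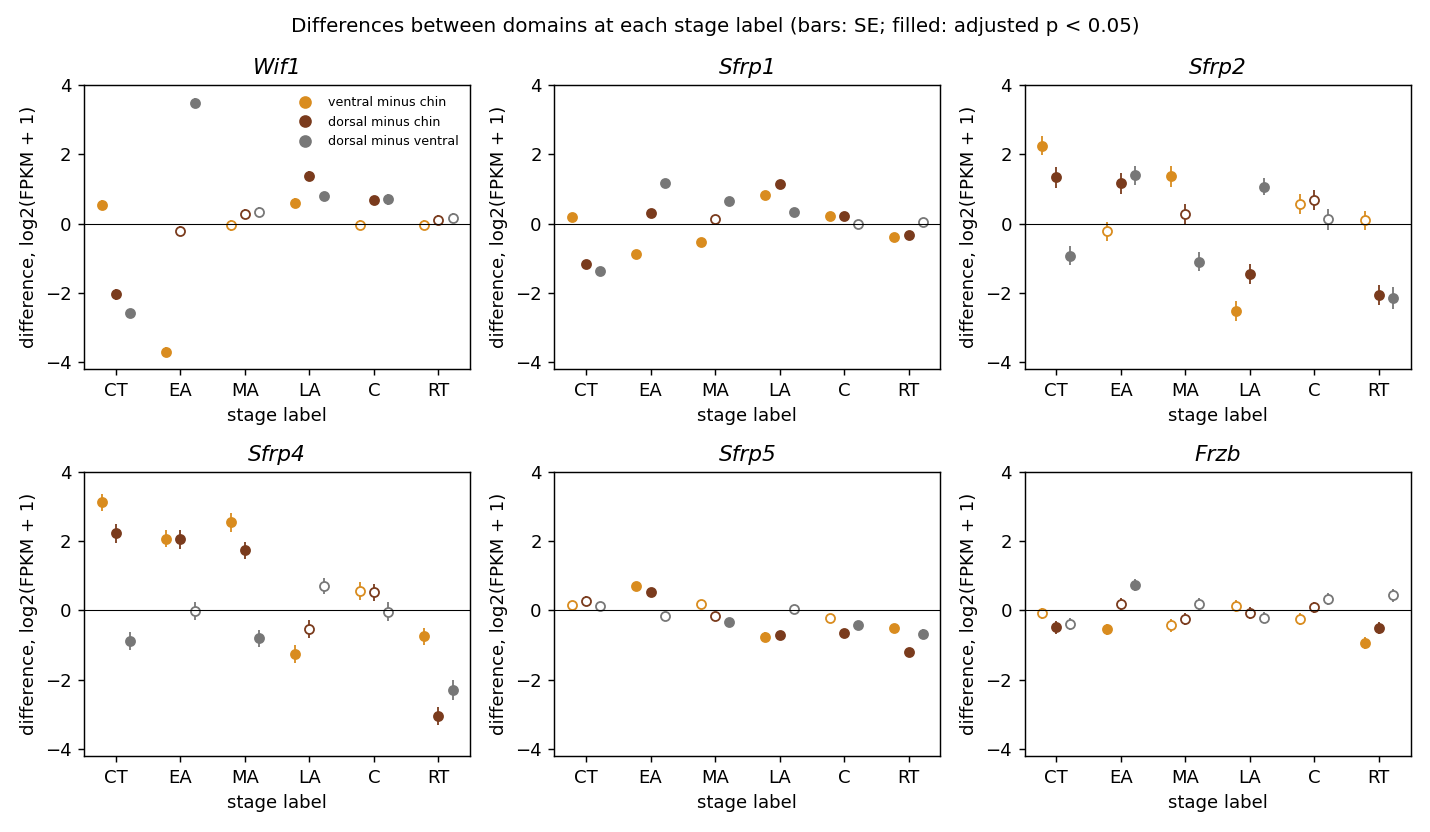
Differences between domains in log2(FPKM + 1) for each gene at each stage label (CT competent telogen, EA early anagen, MA mid-anagen, LA late anagen, C catagen, RT refractory telogen), with bars for 1 SE and filled points where the adjusted p is below 0.05. Differences of Wif1 between domains reach −3.71 at early anagen and are near 0 at refractory telogen, where Sfrp2, Sfrp4 and Sfrp5 are lower in dorsal skin than in both other domains.

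The third question was how the 2 rest phases differ within a domain. From competent to refractory telogen 5 of 6 members differed in chin skin (36.3% of all genes), 6 of 6 in ventral skin (42.6%) and 4 of 6 in dorsal skin (22.2%), and 5, 3 and 3 of these held with any 1 library left out. Wif1 was lower in refractory telogen, at −2.96 ± 0.14 in chin skin (adjusted p = 3.83e-16), −3.55 ± 0.14 in ventral skin (4.07e-18) and −0.79 ± 0.15 in dorsal skin (0.000234). Sfrp4 was higher in refractory telogen by 2.70 ± 0.26 in chin skin (1.19e-09) but lower in ventral skin (−1.17 ± 0.26, 0.000419) and in dorsal skin (−2.58 ± 0.28, 7.71e-08). Sfrp2 was higher by 1.42 ± 0.28 in chin skin (0.000191) and lower in dorsal skin (−1.97 ± 0.31, 2.3e-05). The libraries of the rest phases did not overlap in any of these differences. In dorsal skin the result rests on the libraries labelled competent telogen, and Mki67 was at 6.12 to 13.54 FPKM in competent and at 1.61 to 2.16 FPKM in refractory telogen over the 3 domains. Its part in the result was not tested.

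The fourth question was how whole ear skin differs from dorsal skin and from the cartilage/muscle complex beneath it. Wif1 was at 2084.71, 2065.27 and 2101.76 FPKM in the complex, at 18.91 and 20.84 FPKM in ear skin and at 11.1 and 10.05 FPKM in dorsal skin. The complex was higher than ear skin by 6.64 ± 0.06 (adjusted p = 1.23e-08) and than dorsal skin by 7.49 ± 0.06 (3.84e-09), on the log2(FPKM + 1) scale. Its lowest library was above the highest of all skin libraries, at 69.75 FPKM.

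Frzb was at 153.44, 164.63 and 149 FPKM in the complex, 0.95 and 1.22 FPKM in ear skin and 0.62 and 0.72 FPKM in dorsal skin. It was higher in the complex than in ear skin by 6.23 ± 0.09 (adjusted p = 4.45e-08). Sfrp5 was at 32.29, 37.73 and 35.8 FPKM, 4.02 and 3.43 FPKM, and 1.71 and 1.82 FPKM in the same order of tissues, a difference of 2.94 ± 0.10 between complex and ear skin (1.32e-06). For these genes as for Wif1, the 3 tissues did not overlap and fell in the same order.

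Sfrp2 was at 45.89, 47.35 and 45.22 FPKM in the complex, 31.48 and 31.73 FPKM in ear skin and 10.76 and 10.93 FPKM in dorsal skin, so that most of its difference lay between ear and dorsal skin (1.46 ± 0.06, adjusted p = 6.88e-06). Sfrp1 was at 12.38, 15.69 and 13.35 FPKM, 8.77 and 8.74 FPKM, and 16.92 and 16.71 FPKM, and was lowest in ear skin (−0.87 ± 0.11 against dorsal skin, 0.000886). Sfrp4 was at 2.53, 2.99 and 3.04 FPKM, 3.75 and 3.27 FPKM, and 6.4 and 6.27 FPKM, and was highest in dorsal skin. Its difference between complex and ear skin was −0.23 ± 0.10 and did not pass the test (adjusted p = 0.0822), although the libraries did not overlap.

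In all, 5 of 6 members were higher in the complex than in ear skin, where 66.5% of the 19299 genes tested differed and the median of all genes was −0.11. Ear skin differed from dorsal skin in 6 of 6 members, 4 higher and 2 lower (59.3%, median of all genes 0.33), and the complex from dorsal skin in 6 of 6 (71.1%, median 0.24). With any 1 library left out, 5 of the calls held in each comparison. Frzb between ear and dorsal skin (0.32 ± 0.09, adjusted p = 0.0275) was not called after median-of-ratios scaling, and it was lost without replicate 1 of the complex, replicate 3 of ear skin or either dorsal library, with adjusted p-values of 0.0523 to 0.126. Sfrp1 between complex and dorsal skin (−0.27 ± 0.10, 0.0494) was lost in 6 of the 7 fits without 1 library, with adjusted p-values of 0.0761 to 0.167. When dorsal skin was taken from the 2 refractory telogen libraries instead, Sfrp4 was higher in ear skin (1.88) and in the complex (1.65), since it was at 0.14 and 0.31 FPKM in those libraries. The difference of Frzb between ear and dorsal skin was then 0.10 and did not pass (adjusted p = 0.463), since its libraries overlapped, and the other 4 members kept their direction and their calls. The labels call the dorsal libraries of this table competent telogen. A figure legend of the study also names first telogen for this dorsal skin, and competent telogen is its first telogen. The study's main text on the ear names refractory telogen instead. The sources thus conflict, and the direction of Sfrp4 depends on the stage.

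**Figure D4:**
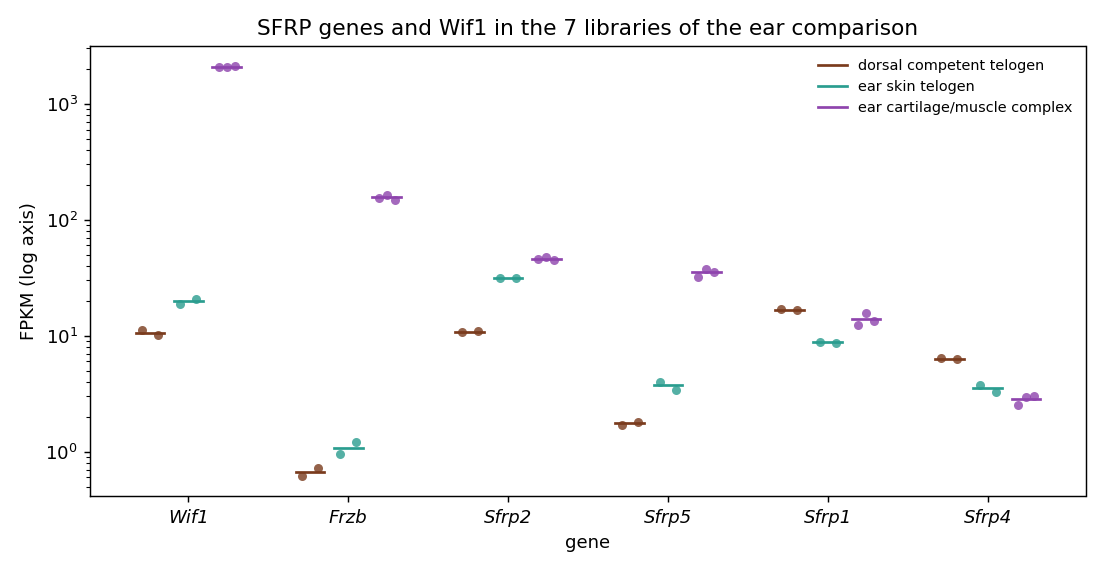
FPKM (log axis) of the 6 genes in dorsal skin labelled competent telogen (2 libraries), ear skin in telogen (2) and the ear cartilage/muscle complex (3), with points for libraries and bars for means. Wif1 lies near 2084 FPKM in the complex against 10.6 FPKM in dorsal skin, and Frzb near 156 FPKM against 0.67 FPKM, while Sfrp1 and Sfrp4 are highest in dorsal skin.

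The complex held the tissues of its label. Of 15 cartilage genes listed, 13 are in the table, and their sum was 3781 to 4498 FPKM in the complex, 13.5 to 14.9 FPKM in ear skin and 3.71 to 4.05 FPKM in dorsal skin, where Matn1 and Matn3 were listed at 0. The 12 skeletal muscle genes summed to 24249 to 27742 FPKM in the complex, 1487 to 1526 FPKM in ear skin and 6757 to 6838 FPKM in dorsal skin, and 6 tendon genes to 856 to 984, 110 to 119 and 8.64 to 11.2 FPKM. The 6 epidermal genes summed to 3.48 to 3.68 FPKM in the complex. The hair matrix list was at 51.4 to 58.7 FPKM in ear skin and at 2690.0 to 2717 FPKM in the dorsal libraries. The cartilage and tendon lists followed the order of Wif1, Frzb and Sfrp5 over the tissues, while the muscle list was also highest in the complex but higher in dorsal than in ear skin. The complex was sequenced whole, and the tissue within it that carries these genes was not tested.

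The WNT pathway around these antagonists was counted from lists. Of 19 WNT ligands listed 14 passed the filter, and all 14 had an interaction of domain and stage, as did 13 of 15 receptors, 13 of 14 other extracellular antagonists, 12 of 12 feedback and target genes and 4 of 4 R-spondins, beside the 73.3% of all genes. In skin the most abundant of each list included Wnt3, a ligand of the epidermis and matrix, with group means of 17.2 to 36.1 FPKM, and the antagonist Sostdc1 with 50.3 FPKM in chin late anagen to 198.8 FPKM in chin competent telogen. The target gene Lef1, a transcription factor of the pathway, had its lowest mean in ventral early anagen at 5.66 FPKM and its highest in chin early anagen at 52.8 FPKM. The mean of Rspo3, a WNT agonist, was lowest in ventral early anagen at 0.907 FPKM and highest in dorsal catagen at 14.3 FPKM. Wif1 was also lowest in ventral early anagen, while Sfrp5 was near its highest level there.

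The most abundant ligands besides Wnt3 were Wnt11 and Wnt10a, whose means ran from 6.54 and 6.69 FPKM in dorsal catagen to 38.9 and 36.2 FPKM in ventral competent telogen. The leading receptor genes were Fzd1 (18.6 to 31.3 FPKM), Ryk (13.2 to 48.5 FPKM) and Lrp6 (11.5 to 20.04 FPKM), whose group means varied less than those of Wif1. Dkkl1 ran from 22.3 FPKM in ventral catagen to 117 FPKM in chin competent telogen and Igfbp4, a binding protein of insulin-like growth factors, from 31.5 to 79.8 FPKM. Of the targets, Cd44 ran from 25.6 to 68.2 FPKM and Ccnd1, a cyclin, from 11.9 FPKM in dorsal refractory telogen to 68.5 FPKM in chin competent telogen. Rspo1 ran from 1.04 to 6.74 FPKM and Rspo4 from 0.267 to 2.98 FPKM.

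Between dorsal and chin skin at refractory telogen, where 34.8% of all genes differed, none of 14 other antagonists was higher and 5 were lower, a share near that of all genes, with a median of −0.24 beside −0.14 for all genes. R-spondins were lower in 3 of 4 (median −0.77), ligands in 4 and higher in 1 of 14 (median −0.10), and of 12 targets 4 were higher and 4 lower (median −0.17). Of the 15 receptors 3 were higher and 3 lower, with a median of 0.09. From competent to refractory telogen in ventral skin, where Wif1, Sfrp1 and Sfrp4 fell and 42.6% of all genes differed in either direction, 10 of 14 ligands, 7 of 15 receptors, 10 of 14 other antagonists, 9 of 12 targets and 4 of 4 R-spondins fell, with medians of −0.60, −0.30, −0.66, −0.61 and −0.90 beside −0.22 for all genes. The share of receptors was near that of all genes. In chin skin, where 36.3% of all genes differed, 9 of 12 targets fell and none rose (median −0.43, all genes 0). In dorsal skin (22.2%) 2 fell and 3 rose (median −0.05, all genes 0).

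In the ear, most ligands and targets were lower in the complex, where Wif1 and Frzb were highest. The summed epidermal genes were also low there. The part of the antagonists or of tissue content in these differences was not tested. Between the complex and ear skin, where 66.5% of all genes differed, 10 of 13 ligands were lower and none higher (median −1.29), and 10 of 12 targets were lower and 1 higher (median −1.12). Of 15 receptors 9 were higher and 3 lower (median 0.76), with Fzd9 at 342 to 435 FPKM in the complex against 0.39 and 0.4 FPKM in dorsal skin. Of 11 other antagonists 3 were higher and 6 lower (median −0.70), and of 3 R-spondins 1 was higher and 1 lower (median −0.03). Dkk3, a Dickkopf family member, was at 162 to 183 FPKM in the complex and 6.64 and 6.81 FPKM in dorsal skin, whereas Dkkl1 was listed at 0 in the complex and at 209 to 214 FPKM in ear skin. The ligands Wnt10a, Wnt3 and Wnt7b were at 0 to 0.35 FPKM in the complex, and their highest means were 26.1 FPKM (Wnt10a, ear skin), 21.7 FPKM (Wnt3, dorsal skin) and 30.7 FPKM (Wnt7b, ear skin).

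Between ear and dorsal skin, where 59.3% of all genes differed, 8 of 11 other antagonists were higher and 1 lower (median 0.67 beside 0.33 for all genes). Of the members, Wif1, Sfrp2, Sfrp5 and Frzb were also higher, though the call of Frzb did not hold under every alternative. Sfrp1 and Sfrp4 were lower. Of 13 ligands 5 were higher and 3 lower (median 0.22), of 15 receptors 3 and 7 (median −0.33), of 12 targets 6 and 4 (median 0.34), and of 3 R-spondins 2 and 0 (median 1.15). Between the complex and dorsal skin, where 71.1% of all genes differed, 1 of 13 ligands was higher and 10 lower (median −1.90), 8 of 15 receptors higher and 6 lower (0.28), 4 of 11 other antagonists higher and 6 lower (−1.07), 1 of 12 targets higher and 7 lower (−1.53) and 2 of 3 R-spondins higher and 1 lower (1.71). Igfbp4 was highest in the complex at 88.6 to 121 FPKM, and Rspo3 at 6.72 to 8.77 FPKM. These 3 comparisons share their groups, so their counts are not independent of each other.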

How the data were processed

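RNA of 48 libraries from C57BL/6 mouse skin and ear was made into SMART-seq2 libraries and sequenced as paired ends. The authors quantified genes with RSEM 1.2.25 on mm10 with GENCODE vM8 and deposited FPKM values with 2 decimals, stated to be corrected for batch effects. The batches are not named in the sources used here, and any effect of such a correction cannot be undone from these values. In each library, 80.6 to 87.2% of the low values used to estimate depth lay within 0.2 of a whole fragment. Whether the deposited values carry the correction was not tested, so batch effects may remain in them. Values were fitted here as log2(FPKM + 1), in which fold changes of low genes are understated, for genes that reached 0.5 FPKM in 2 or more libraries, using limma 3.58.1 in R 4.3.3 with a variance trend. Limma was used since FPKM is not a count. The 43 skin libraries were fitted as 18 groups and the 7 ear libraries separately as 3 tissues, since the ear tissues are not among the 18 groups. P-values are two-sided and adjusted by the Benjamini-Hochberg method over all genes tested, with a threshold of 0.05. On simulated data for dorsal against chin refractory telogen, 97 of 100 genes changed by a log2 of 1 were called, and 84 of 100 for the ear complex against ear skin. In each, 11 unchanged genes were also called. The changed genes were drawn only from genes with a higher mean log2(FPKM + 1) than Frzb, Sfrp5 and Sfrp4 have in skin. The simulation thus does not show how well changes of such low genes are found. Depth was estimated from FPKM steps and covers counting error only.

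Named genes were the 6 members, the 3 genes most alike in group means for each, and the 3 most abundant genes of each pathway list. Predicted genes (Gm or Rik names) were left out of the search for the most alike genes. Members and lists were chosen with earlier results of these data known. Alternatives were another pseudocount, filters, TPM, other scalings, no variance trend, a replicate block, single stages, other dorsal libraries, and libraries or groups left out, the groups chosen after the data were seen.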

Additional observations from a re-analysis of the deposited data

Results flagged for a closer look

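Each of the 6 genes changed over the stages in a way that differed between chin, ventral and dorsal skin, by the interaction of domain and stage in limma (43 libraries, 18 groups). The adjusted p was 2.24e-18 for Wif1, 2.25e-17 for Sfrp1, 1.54e-12 for Sfrp4, 2.32e-10 for Sfrp2, 3.4e-08 for Sfrp5 and 0.00102 for Frzb, and 73.3% of all genes passed the same test. For Wif1, the step from the libraries labelled competent telogen to those labelled early anagen was −4.22 in ventral, 1.87 in dorsal and 0.03 in chin skin. For Sfrp4, refractory minus competent telogen was 2.70 in chin and −2.58 in dorsal skin. Groups of 2 or 3 libraries were not searched for single outlying libraries.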

How the results depend on the processing

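The 9 counts of members past the threshold stayed within 1.5 times their value under every alternative run. With each library left out in turn they were 6 of 6 for the interaction, 17 to 18 among stages, 26 to 28 among domains, 61 to 67 between domains, 51 to 58 between consecutive stages, 12 to 15 between the rest phases, 5 in the complex against ear skin, 5 to 6 in ear against dorsal skin and 5 to 6 in the complex against dorsal skin. Single tests changed direction in 4 cases, and the cause was not tested. They are Sfrp1 from early to mid-anagen in dorsal skin after median-of-ratios scaling (0.29, from 0.00), Frzb in ear against dorsal skin after quantile normalization (−0.0076), and Sfrp4 against the dorsal refractory telogen libraries (1.88 in ear skin, 1.65 in the complex). A minimum of 5 FPKM left 4 members in skin and 6 in the ear. Replicate numbers did not pair the libraries, since residuals correlated by a median of 0.003 in 327 same-numbered pairs and −0.0028 in 544 others, and with the replicate block 63 pairwise domain differences passed against 64 without it. The block was fitted for the complex against dorsal skin on 5 libraries (5 of 6 members) and not for ear skin, whose columns carry other numbers than its sample titles. Low counts limit Sfrp5, Frzb and Sfrp4 in dorsal refractory telogen.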
